A study of Oryza sativa Japonica Group with 6 samples.

Results

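Iron and metal uptake genes of rice roots, 10 in number, were followed in root tips of wild type and plt345 seedlings. They are IRT1, NRAMP1, NRAMP5, NAS1, NAS2, NAAT1, TOM1, YSL15, IRO2 and HMA3, taken by locus identifier from the 31010 genes that the table lists. All 10 were listed, and all 10 passed the filter of a mean of at least 10 normalized counts. The wild type was the cultivar Zhonghua 11 (ZH11; Oryza sativa Japonica Group), and plt345 is a triple mutant of PLT3, PLT4 and PLT5, which encode PLETHORA transcription factors of the root meristem. RNA was taken from tips about 0.8 cm long of 7-day seedlings grown on diluted Murashige and Skoog medium, with no treatment in either genotype, and each genotype had 3 libraries. The labels give neither the kind of mutation nor whether plt345 is a single line.

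Grasses acquire iron mainly by secreting phytosiderophores, small chelators of the mugineic acid family, which bind ferric iron in the soil and are taken back into the root as the iron complex. The precursor nicotianamine is made from S-adenosylmethionine by nicotianamine synthases, and an aminotransferase then leads it toward deoxymugineic acid. Rice roots also take up ferrous iron directly, and transporters of the IRT and NRAMP families that do so carry manganese, zinc or cadmium as well. Genes of this system are known to be induced by iron deficiency in rice roots, largely through basic helix-loop-helix factors such as IRO2.

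The libraries held 20759896 to 21309371 reads counted on genes. At a Benjamini-Hochberg adjusted p under 0.05 in limma-trend, 7886 of 23166 tested genes were higher in plt345 and 7865 lower, and with library totals as scaling the split was 9362 against 6014. At the loci that rice nomenclature gives for the mutated genes, PLT3 was at 572.8 to 583.7 normalized counts in wild type and 555.8 to 595.2 in plt345. PLT4 was at 248.5 to 287.8 and 218.2 to 244.2, and PLT5 at 512.6 to 564.4 and 1259 to 1277. Since the kind of mutation is not given, these levels do not check the genotype. Whether the libraries are of separately grown plants is not in the labels, and the spread behind the p-values may therefore be technical.

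Most of the metal uptake genes were several-fold higher in plt345. Of the 10 genes, 8 rose and 2 fell, and all 8 that rose did so by at least 2-fold. Across all tested genes 68.0% were called, 34.0% higher and 34.0% lower, with 13.8% higher by 2-fold or more and 2.97% lower by as much. The median log2 fold change, always plt345 over wild type on the log2(normalized count + 1) scale, was 1.95 over the 10 genes and -0.01 over all tested genes, whose interquartile range was -0.27 to 0.43. In none of the 10 did a plt345 library overlap a wild type library, a separation seen upward in 35.6% and downward in 35.5% of all tested genes. The 8 genes that rose cover uptake of metal ions, synthesis and efflux of phytosiderophores and the transcription factor IRO2. The 2 that fell were YSL15, the importer of the iron complex, and HMA3, a vacuolar pump.

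**Figure D1:**
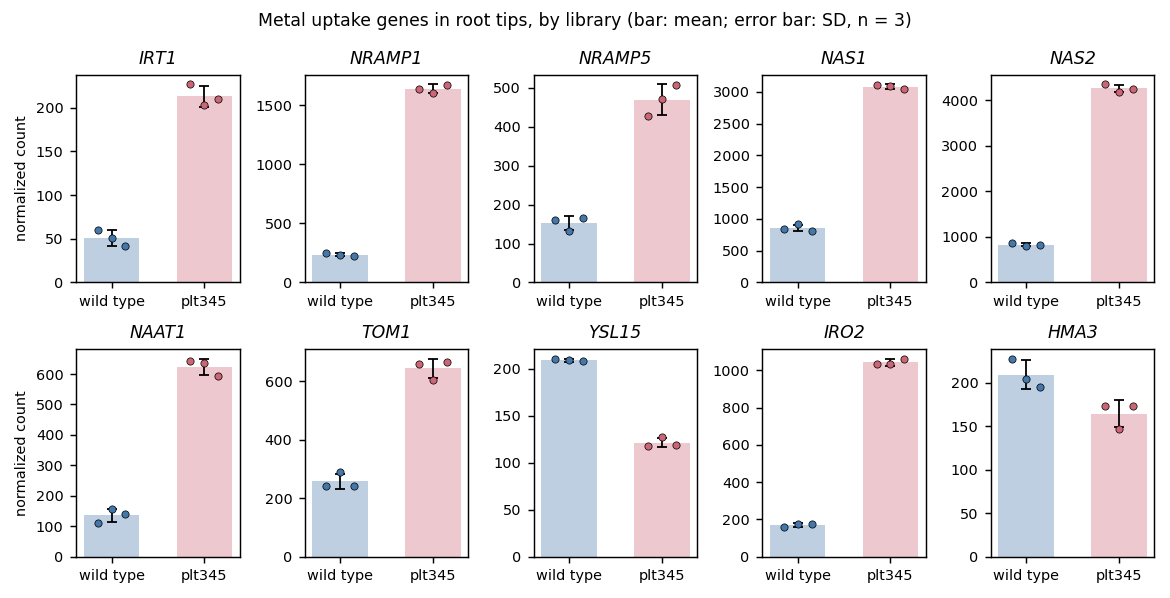
Normalized counts (vertical axes, each starting at 0) of the 10 metal uptake genes in wild type and plt345 root tips; points are libraries, bars the mean and error bars the SD over 3 libraries. All plt345 points lie above the wild type points for 8 genes and below them for YSL15 and HMA3.

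The 3 transporters of metal ions among the 10 genes, NRAMP1, IRT1 and NRAMP5, rose. NRAMP1 (LOC_Os07g15460), a transporter of the natural resistance-associated macrophage protein family that carries iron, manganese and cadmium, was at 251, 231 and 222 normalized counts in the wild type libraries and at 1639, 1599.7 and 1675 in the plt345 libraries. It rose 6.98-fold, from 234.8 ± 14.9 to 1638 ± 37.7 (SD, n = 3; log2 fold change 2.80 with a standard error of 0.05, limma adjusted p = 8.36e-24). This was the widest change among the 10 genes, and its log2 fold change exceeded that of 96.2% of all tested genes.

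IRT1 (LOC_Os03g46470), the ferrous iron transporter, was the lowest of the 10 in reads, with 150 summed over wild type. Its normalized counts were 60.0, 51.1 and 41.9 in wild type and 227, 203 and 209.6 in plt345. Every plt345 library was more than 3 times the highest wild type library. It rose 4.17-fold, from 51.0 ± 9.03 to 212.9 ± 12.3 (log2 fold change 2.05 with a standard error of 0.13, limma adjusted p = 4.65e-13). The wild type libraries of this gene spread more than those of the other 9, with a coefficient of variation of 17.7%.

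NRAMP5 (LOC_Os07g15370), the main manganese and cadmium uptake transporter of rice roots, was at 161, 133 and 165 normalized counts in wild type and at 428, 472 and 508 in plt345. It rose 3.07-fold, from 152.8 ± 17.3 to 469.3 ± 39.7 (log2 fold change 1.62 with a standard error of 0.09, limma adjusted p = 1.38e-14). NRAMP5 and NRAMP1 lie close together on chromosome 7, with log2 fold changes of 1.62 and 2.80. The ratio of NRAMP1 to NRAMP5 counts within a library was 1.56, 1.74 and 1.35 in wild type and 3.83, 3.39 and 3.30 in plt345, without overlap (exact permutation test, two-sided, p = 0.1, the smallest that 3 libraries against 3 allow).

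Genes of phytosiderophore synthesis rose as well. NAS1 (LOC_Os03g19427) and NAS2 (LOC_Os03g19420) encode nicotianamine synthases and are neighbours on chromosome 3. NAS1 was at 843, 913 and 816 normalized counts in wild type and at 3114, 3094 and 3050.1 in plt345, 3.598-fold higher (log2 fold change 1.85 with a standard error of 0.04, limma adjusted p = 1.2e-22). NAS2 was at 864, 797 and 814 in wild type and at 4350, 4190 and 4246 in plt345, 5.17-fold higher (log2 fold change 2.37 with a standard error of 0.04, limma adjusted p = 1.81e-25). The ratio of NAS2 to NAS1 counts was 1.03, 0.872 and 0.997 in the wild type libraries and 1.40, 1.35 and 1.39 in the plt345 libraries (exact permutation test, two-sided, p = 0.1). The paralogs are similar in sequence, and how reads shared between them were counted is not given in the sources used here, so their separate values are uncertain to that extent.

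NAAT1 (LOC_Os02g20360), the nicotianamine aminotransferase of the next step, was at 112, 155 and 139 normalized counts in wild type and at 641, 637 and 594 in plt345. The lowest plt345 library stood far above the highest wild type library. It rose 4.61-fold, from 135.5 ± 22.0 to 624.2 ± 26.0 (log2 fold change 2.21 with a standard error of 0.09, limma adjusted p = 4.52e-17).

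**Figure D2:**
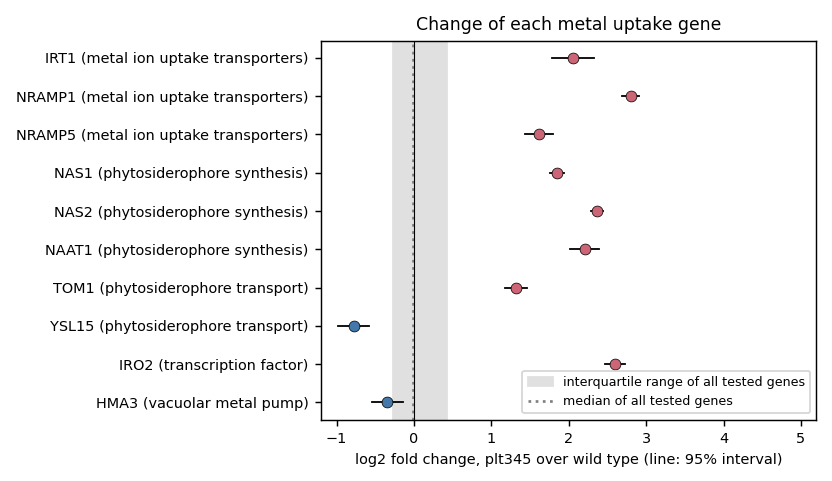
Log2 fold change between genotypes, positive where plt345 was higher, for each of the 10 genes (horizontal axis; lines are 95% intervals of the limma fit), grouped by role, with the interquartile range of all tested genes in grey. The 8 genes that rose lie between 1.32 and 2.80, and YSL15 and HMA3 lie at -0.78 and -0.35.

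The transport steps of phytosiderophores moved in opposite directions. TOM1 (LOC_Os11g04020), which exports deoxymugineic acid from root cells, was at 241, 288 and 243 normalized counts in wild type and at 659, 606 and 666 in plt345. It rose 2.50-fold (log2 fold change 1.32 with a standard error of 0.07, limma adjusted p = 1.12e-14), the smallest of the 8 increases. YSL15 (LOC_Os02g43410), of the yellow stripe-like family, imports the ferric complex of deoxymugineic acid and was at 211, 209 and 208 in wild type and at 118, 127 and 119 in plt345. It fell 1.72-fold, from 208.9 ± 1.43 to 121.4 ± 5.11 (log2 fold change -0.78 with a standard error of 0.10, limma adjusted p = 7.64e-08).

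The count of YSL15 relative to that of NAS1 differed widely between genotypes. Within a library NAS1 counts were 4.005, 4.38 and 3.93 times those of YSL15 in wild type and 26.5, 24.3 and 25.6 times in plt345. Such a ratio of counts carries the lengths of both transcripts, so it is compared between libraries and says nothing of which gene is more abundant.

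IRO2 (LOC_Os01g72370), a basic helix-loop-helix factor that activates phytosiderophore genes in iron-deficient rice, was at 159, 178 and 178 normalized counts in wild type and at 1034, 1032 and 1063 in plt345. The plt345 libraries had a coefficient of variation of 1.62%, and the lowest was far above the highest wild type library. It rose 6.08-fold, from 171.5 ± 11.2 to 1043 ± 16.9 (log2 fold change 2.60 with a standard error of 0.06, limma adjusted p = 6.76e-22). YSL15 is known as a gene that IRO2 activates under iron deficiency, and here the counts of the pair moved apart. The ratio of IRO2 to YSL15 counts was 0.754, 0.853 and 0.857 in wild type and 8.79, 8.12 and 8.91 in plt345.

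HMA3 (LOC_Os07g12900), a heavy metal ATPase that loads cadmium and zinc into root vacuoles, showed the smallest change. It was at 228, 205 and 195 normalized counts in wild type and at 174, 147 and 173 in plt345. It fell 1.27-fold, from 209.3 ± 16.7 to 164.5 ± 15.3 (log2 fold change -0.35, 95% interval -0.55 to -0.15, limma adjusted p = 0.00273). NRAMP5, which brings cadmium into the cell, rose over the same libraries, and the ratio of NRAMP5 to HMA3 counts went from 0.705, 0.65 and 0.843 to 2.47, 3.21 and 2.93. The reference table of symbols does not hold HMA3 and gives the symbols IRO2 and TOM1 to genes on other chromosomes, so these 3 names rest on rice nomenclature, while the other 7 were placed at their loci.

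Other genes of metal handling were described from lists of 62 loci, of which 58 were tested, 36 called higher, 11 called lower and 11 short of the threshold (34.0% higher and 34.0% lower over all tested genes), and the median log2 fold change was 0.40. Of these, 34 have their symbol placed at the locus by the reference table, and the loci without one were only counted. In the list of further phytosiderophore and iron uptake genes, 4 of 6 tested loci were higher and 1 lower, and the median log2 fold change was 1.75. NAS3 (LOC_Os07g48980), the other nicotianamine synthase, was at 295, 282 and 271 in wild type and at 1288, 1294 and 1186 in plt345. It rose 4.44-fold (log2 fold change 2.15, limma adjusted p = 2.25e-21), so all 3 NAS genes were higher. YSL2 (LOC_Os02g43370), a transporter of nicotianamine complexes of iron and manganese, was at 41.7, 36.8 and 51.2 in wild type and at 764, 779 and 775 in plt345. It rose 17.9-fold (log2 fold change 4.14 with a standard error of 0.10, limma adjusted p = 1.28e-21), more than any of the 10 genes.

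IRT2 (LOC_Os03g46454), the second ferrous iron transporter and a near neighbour of IRT1, was too low to test, with 4 reads in all 3 wild type libraries together and 31 in those of plt345. The ratio of its reads, scaled by depth, was 7.39 with a 95% exact binomial interval of 2.61 to 28.8, which covers counting error only. YSL16 (LOC_Os04g45900), named after its value was seen and the only one of the 3 tested members with a placed symbol that was not called, had a log2 fold change of 0.13 (limma adjusted p = 0.0684).

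Among 10 regulators of the iron response, all tested, 7 were higher, none was lower and 3 did not pass, where 68.0% of all tested genes were called, 34.0% higher, and the median log2 fold change was 0.33. IRO3 (LOC_Os03g26210), a basic helix-loop-helix factor that represses iron deficiency genes, was at 67.1, 57.3 and 80.8 in wild type and at 677, 659 and 609.6 in plt345. It rose 9.48-fold (log2 fold change 3.24 with a standard error of 0.10, limma adjusted p = 1.54e-19). The reference table holds a single record for the symbols IRO3 and IRO2, on chromosome 3, where LOC_Os03g26210 lies, so the locus and not the symbol tells the pair apart. Both LOC_Os03g26210 and LOC_Os01g72370 rose. IDEF1 (LOC_Os08g01090), named after its value was seen, binds promoters of iron deficiency genes and rose by less, 1.19-fold from 335.2 ± 16.6 to 398 ± 26.1 (limma adjusted p = 0.00276).

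Genes of iron storage and distribution were higher in 6 and lower in 2 of 10 tested loci, beside 34.0% each over all tested genes. The median log2 fold change was 0.18. Of the 6, 3 loci without a placed symbol rose by at least 2-fold, up to a log2 fold change of 5.13. The locus with that value had only 1, 2 and 2 reads in the wild type libraries. It passed the filter through its plt345 values, and the size of its change depends on the pseudocount. Of the 3 with a placed symbol the called ones were VIT2 (LOC_Os09g23300), a vacuolar iron transporter, which fell 1.27-fold from 423.6 ± 40.8 to 333.2 ± 5.42 (limma adjusted p = 0.000125), and YSL6 (LOC_Os04g32050), a manganese transporter, which rose 1.11-fold (limma adjusted p = 0.00481). VIT1 (LOC_Os04g38940), named after its value was seen, did not pass (log2 fold change -0.09, limma adjusted p = 0.406). The methionine cycle recycles the sulfur compound left over from nicotianamine synthesis. It had 5 of 7 tested loci higher and none lower, beside 34.0% each over all tested genes, and the median log2 fold change was 0.38. ARD2 (LOC_Os03g06620), an acireductone dioxygenase of that cycle, rose 2.54-fold, from 1527 ± 22.8 to 3871 ± 15.4 (log2 fold change 1.34, limma adjusted p = 1.0e-21). Some reference records carry further symbols, and these names are less sure. The record of ARD2 also carries that of a heat shock factor, HSFA2D, those of ZIP5, ZIP7 and ZIP8 also carry ZIP2, ZIP3 and ZIP1, and that of IRO3 also carries IRO2. That of COPT7 also carries COPT5.1, and the symbol OsHMA5 is on the record of HMA9 as well as on that of HMA5. SAMS2 (LOC_Os01g22010), named after its value was seen, makes S-adenosylmethionine and was not called, with a log2 fold change of -0.05 (limma adjusted p = 0.0903).

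**Figure D3:**
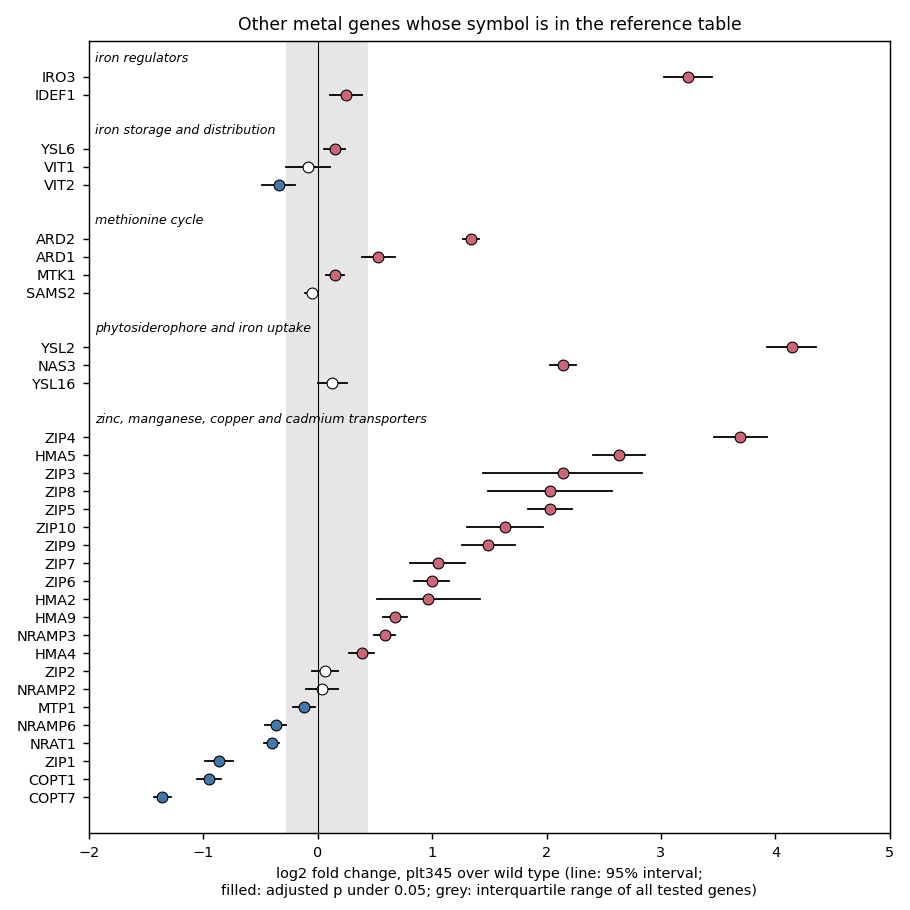
Log2 fold change between genotypes, positive where plt345 was higher (horizontal axis; lines are 95% intervals) for the 33 tested genes of the other metal lists whose symbol the reference table places at the locus; filled points passed adjusted p under 0.05 and grey marks the interquartile range of all tested genes. YSL2, ZIP4 and IRO3 lie farthest to the right, and COPT7 farthest to the left at -1.36.

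Transporters of zinc, manganese, copper and cadmium were called higher in 14 of 25, lower in 8 and short of the threshold in 3, beside 34.0% higher and 34.0% lower over all tested genes, and the median log2 fold change was 0.58. By 2-fold or more 9 were higher and 2 lower, where 13.8% and 2.97% of all tested genes were. The largest fall, a log2 fold change of -2.83, was at a locus without a placed symbol. That locus had only 4, 8 and 7 reads in the plt345 libraries. It passed the filter through its wild type values, so the size of its fall is uncertain. The increases of at least 2-fold with a placed symbol were those of ZIP3, ZIP4, ZIP5, ZIP7, ZIP8, ZIP9, ZIP10 and HMA5. ZIP4 (LOC_Os08g10630), a zinc transporter of the ZIP family to which IRT1 also belongs, was at 30.5, 33.8 and 37.9 in wild type and at 441, 441 and 469 in plt345, a 13.2-fold rise (log2 fold change 3.69, limma adjusted p = 8.76e-20). The other 6 of these ZIP genes rose between 2.07-fold for ZIP7 and 5.13-fold for ZIP3. ZIP3, counted among the 9, had only 5, 3 and 5 reads in the wild type libraries. It passed the filter through its plt345 values, so its fold change is uncertain. HMA5 (LOC_Os04g46940), a copper pump related to HMA3, rose 6.33-fold from 48.7 ± 2.72 to 307.9 ± 18.4 (log2 fold change 2.64, limma adjusted p = 7.02e-17).

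Copper importers went the other way. COPT7 (LOC_Os09g26900) was at 3209, 3089 and 3102 in wild type and at 1273, 1176 and 1218 in plt345, a 2.56-fold fall (log2 fold change -1.36, limma adjusted p = 1.09e-20). COPT1 (LOC_Os01g56420), named after its value was seen, fell 1.93-fold, from 1264 ± 56.9 to 655.6 ± 41.3 (limma adjusted p = 1.07e-14). ZIP1 (LOC_Os01g74110), also named afterwards, fell 1.83-fold from 798.2 ± 60.1 to 437.1 ± 22.5 (limma adjusted p = 1.59e-12). Within the NRAMP family, named afterwards as well, NRAMP3 (LOC_Os06g46310) rose 1.499-fold. NRAMP6 (LOC_Os12g39180) and NRAT1 (LOC_Os02g03900), an aluminium transporter of that family, fell 1.29-fold and 1.32-fold. NRAMP2 (LOC_Os03g11010) did not pass (log2 fold change 0.04, limma adjusted p = 0.639).

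The likeness of profiles was measured as the root mean square difference of log2(normalized count + 1), centred on the wild type mean, over the 6 libraries. Each gene was set against the 33 tested genes of the other metal lists whose symbol the reference table places at the locus. Tested loci without a placed symbol were not compared, so nearest means nearest among the 33. The measure includes the difference between genotypes, so genes of similar fold change come out near each other, and it carries no test. IRO2 was nearest to HMA5, at 0.0548, and next to NAS3, at 0.336. NAS3 was also the nearest gene to IRT1, at 0.142, to NAS2, at 0.164, and to NAAT1, at 0.170. NAS1 was nearest to ZIP5, at 0.152, NRAMP5 to ZIP10, at 0.143, NRAMP1 to HMA5, at 0.155, and TOM1 to ARD2, at 0.0868. The genes that fell were nearest to genes that also fell, YSL15 to ZIP1, at 0.0834, and HMA3 to VIT2, at 0.0719.

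Several of the 10 genes stand beside related genes in the genome, and neighbours in locus order were examined. YSL2 and YSL15 lie close together on chromosome 2, with LOC_Os02g43380 and LOC_Os02g43390 the only listed loci between them, and moved in opposite directions. The ratio of YSL2 to YSL15 counts was 0.198, 0.176 and 0.246 in the wild type libraries and 6.49, 6.12 and 6.50 in the plt345 libraries. LOC_Os02g43380, which has no name here, was without a read in wild type and had 34 reads in plt345. ZIP8 (LOC_Os07g12890), next to HMA3, rose 4.34-fold from 10.5 ± 3.24 to 45.8 ± 10.3 while HMA3 fell, and the ratio of ZIP8 to HMA3 counts was 0.0625, 0.045 and 0.0419 in wild type and 0.209, 0.387 and 0.256 in plt345.

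**Figure D4:**
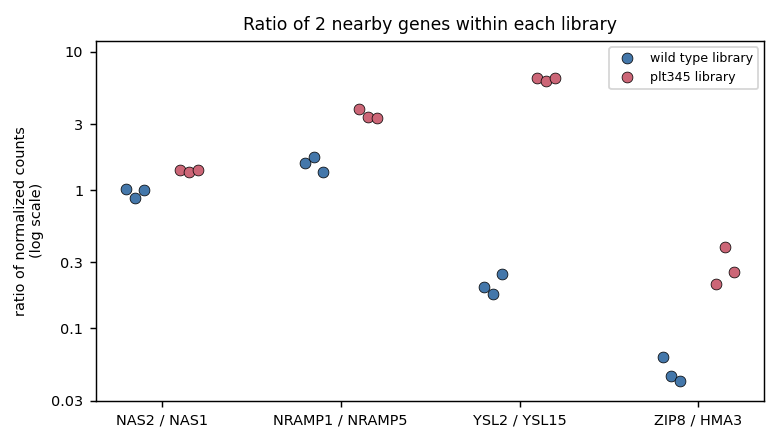
Ratio of normalized counts of 2 nearby genes within each library (vertical axis, log scale) for NAS2 over NAS1, NRAMP1 over NRAMP5, YSL2 over YSL15 and ZIP8 over HMA3; each point is a library. The plt345 points lie above the wild type points in all 4 pairs, with the widest gap, 30.8-fold between means, for YSL2 over YSL15. Each ratio has the gene with the larger log2 fold change on top, so the common direction follows from that order.

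The loci around the 10 genes were counted in the same fit. Taking the 3 listed loci on each side of each gene and leaving out the 10 themselves, there were 50 distinct neighbours, of which 40 were tested. Of these 9 were higher and 15 lower, beside 34.0% of all tested genes in each direction. At least 2-fold higher were 5, beside 13.8% of all tested genes. These were YSL2, ZIP8, LOC_Os11g04010 beside TOM1, LOC_Os01g72420 near IRO2 and LOC_Os02g43430 near YSL15. The last 3 had log2 fold changes of 3.25, 2.13 and 1.48. LOC_Os11g04060, also near TOM1, fell, with a log2 fold change of -1.16. The adjacent loci LOC_Os03g46460 and LOC_Os03g46480 on either side of IRT1 fell short of the threshold, at log2 fold changes of -0.07 and -0.05 (limma adjusted p = 0.498 and 0.329).

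Markers of root zones also differed between genotypes, and a whole root tip holds several zones. In such bulk samples fewer cells of a type and less RNA per cell cannot be told apart. The marker lists were chosen with earlier results of these data known, and 34.0% of all tested genes were called in each direction. All 5 markers of dividing cells (PCNA, MCM4, CYCB2;2, CYCD4;1 and CDKB2;1) fell, and their summed normalized counts were 7631 to 7697 in wild type and 5632 to 5781 in plt345. All 3 secondary wall cellulose synthases of xylem (CESA4, CESA7 and CESA9) rose, with sums of 2247 to 2307 and 3873 to 3904. Of 3 markers of exodermis and endodermis the silicon transporter genes LSI1 and LSI2 rose and CASP1 fell, with sums of 3729 to 3903 and 8374 to 8623. Of 3 root hair markers 2 rose and CSLD1 did not pass, with sums of 2356 to 2612 and 2694 to 2842. No marker was at 0 in any library. LSI1 (LOC_Os02g51110) rose 3.90-fold and LSI2 (LOC_Os03g01700) 4.72-fold, within the range of the 8 metal uptake genes that rose, which was 2.50-fold to 6.98-fold. Relative to the wild type mean, the plt345 sums were 0.734 to 0.753 for dividing cells, 1.70 to 1.71 for xylem, 2.19 to 2.25 for exodermis and endodermis, and 1.09 to 1.15 for root hairs. The part of these zones in the change of the metal uptake genes was not tested.

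**Figure D5:**
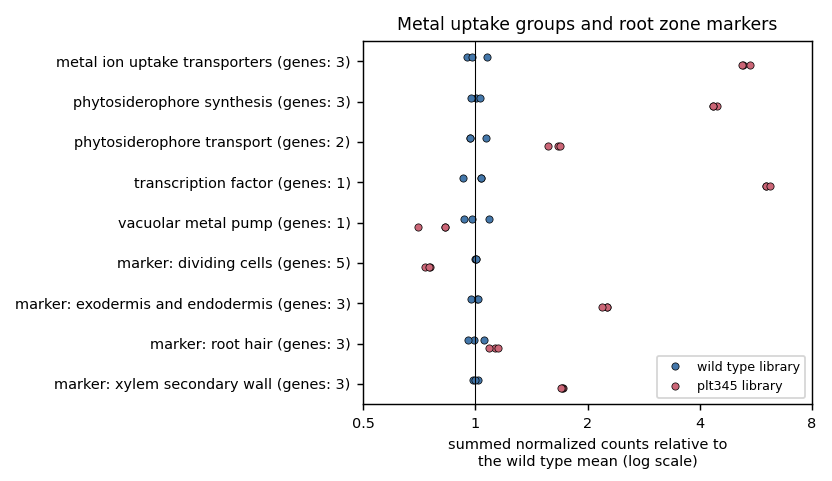
Summed normalized counts of each group of metal uptake genes and of each list of root zone markers in every library, relative to the mean of the wild type libraries (horizontal axis, log scale); each point is a library. The plt345 points of ion uptake, phytosiderophore synthesis and IRO2 lie between 4.34 and 6.19, and those of the marker lists between 0.734 and 2.25. Those of phytosiderophore transport lie between 1.57 and 1.68, and those of the vacuolar pump HMA3 between 0.701 and 0.829.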

How the data were processed

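RNA-seq of 6 libraries was used. Per the labels' protocols, TRIzol extracts of total RNA were sequenced in paired-end mode on the BGISEQ-500 platform. HISAT2, featureCounts 2.0.0 and DESeq2 1.38.3 are named, per the submitters' processing notes, with no parameters, while genome build and strand setting are not given there. The authors deposited counts per gene divided by a size factor per library (a signal on a linear scale) and their mean. Their table also holds, per the file headers, a log2 fold change with its standard error, a Wald statistic (a score, not used here), p-values and adjusted p-values. In each library 100% of values were a whole number of reads to within 0.01 of a read, so read counts were recovered from the deposited values, 20759896 to 21309371 per library.

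Genes with a mean of at least 10 entered a limma 3.58.1 fit of log2(value + 1) (eBayes with trend, two-sided, R 4.3.3), adjusted over 23166 genes, with no block. The pseudocount understates changes of low genes. The biological coefficient of variation was 2.72% (edgeR 4.0.16), so small changes pass. Alternatives were library totals, edgeR, DESeq2 1.42.0, pseudocounts, filters, no trend, a replicate block, the authors' adjusted p-values (NA for 1789 genes) and leaving out each library. The fit was tested on simulated data. Pairs of libraries of one genotype differed by more than sampling noise (chi-square per gene 1.44 to 2.12, against at least 53.2 between genotypes).

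Members and lists were chosen with earlier results of these data known. Named genes are all members and, of each other list, members with a placed symbol past the threshold and at least 2-fold, or else the 2 with the smallest adjusted p, and up to 3 too low to test; names outside this rule are marked, except zone markers. Symbols were placed where the reference table (assembly ASM3414082v1), which holds no LOC_Os identifiers, has the symbol on the right chromosome and at most 1 Mb from the position interpolated from other pairs; of 87 pairs 54 were placed, 30 symbols were not found and 3 lay elsewhere. Of these 3, TOM1 and IRO2 were kept by the rule for members, and the third was left out of its list. Promoter and protein sequences were not analysed here.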

Additional observations from a re-analysis of the deposited data

How the results depend on the processing

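Under all 16 alternatives 8 of the 10 metal uptake genes were called higher, each at least 2-fold, and 2 lower, and each of the 10 kept its direction and its call. The log2 fold change of HMA3, the smallest, ranged from -0.39 to -0.26 (largest adjusted p = 0.0286), that of YSL15 from -0.81 to -0.69, that of TOM1 from 1.28 to 1.41 and that of NRAMP1 from 2.76 to 2.89. In the other metal lists 32 to 40 loci were called higher and 8 to 11 lower. Over all tested genes 6063 to 9362 were higher and 6014 to 7972 lower, and library totals moved the share of calls that were higher from 50.1% to 60.9%. Leaving out each library in turn gave 7326 to 7800 higher and 7349 to 7546 lower. Replicate numbers shared by the genotypes were not taken as pairs, since deviations of same-numbered libraries correlated at -0.001 to 0.024 and not every library correlated best with its own number. With the replicate block 7941 genes were higher and 7972 lower, and the 10 genes had the same calls. Depth limits IRT2 and the lowest loci.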
